A study of Mus musculus with 13 samples.

Results

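Open chromatin regions whose summit fell inside protein-coding sequence, away from any transcript start, were examined in ATAC-seq data from mouse embryos at E12.5. In each library, a region was taken when its strongest summit lay in a coding interval of the GENCODE M21 annotation and more than 2 kb from every annotated transcript start, on chromosomes 1 to 19 and, for chromosome 2, below 75 Mb. Overlapping regions were then merged over 12 libraries. This gave 2803 coding-exon regions among 245983 open regions in all, which is 1.14% of them. Leaving out 11 that lay in coding sequence of several genes, they lay in 2189 genes, and 426 genes held more than 1.

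ATAC-seq marks open chromatin because a transposase inserts sequencing adapters preferentially into DNA that is not covered by nucleosomes. Enhancers, the elements that raise transcription of a gene from a distance, mostly lie in introns and between genes, but some coincide with coding exons, so that the same bases both encode a protein and bind transcription factors. In the developing limb, coding exons of Hdac9 and Dync1i1 are textbook examples, with Twist1 and the Dlx5 and Dlx6 pair as their target genes rather than the genes that host them.

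Forelimb buds were split into a distal part (DFL) and a proximal part (PFL), and forebrain (FB) was taken from the same stage, each in wild-type (wt) embryos and in embryos of breeding line 542, with 2 libraries in each of the 6 groups. Line 542 carries 1 additional copy of the distal limb enhancer II1 with the HBB promoter and a LacZ reporter, inserted into the regulatory domain on the telomeric side of the HoxD cluster (T-DOM). The study gives the mutant embryos taken for ATAC-seq as homozygous for the insertion, and the labels derive them from crosses of heterozygous adults. The peak lists of line 542 were made on a genome that includes the insertion and those of wt on mm10, so genotype and mapping genome cannot be told apart. The strain of all libraries was B6CBAF1 and no treatment was applied. Each library was made from 50000 cells of tissue pooled over several embryos, so variation between single embryos was averaged out, and line 542 is a single insertion event. The insertion itself lies outside the chromosome range used here, and a further wt DFL library that the labels mark as a reanalysis was kept out of all comparisons except 1 alternative for the tissue patterns.

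The 12 libraries held 78945 to 109961 regions each within the range used, made from an estimated 37.5 to 70.7 M tags per library. Tags were 51.4 to 70.7 M in FB and 37.5 to 54.5 M in limb. In DFL and PFL every wt library (44.0 to 54.5 M) had more tags than every 542 library (37.5 to 41.4 M). Depth therefore cannot be told apart from genotype in limb, and it went in part with tissue. Tissue labels were checked at transcript starts, as the percentile of the strongest region within 2 kb among all regions of its library. Hoxa13, which specifies the distal limb, stood at percentiles 82.8 to 87.4 in DFL and 49.2 to 73.9 in PFL and was called in 1 of 4 FB libraries. Tbx5, the forelimb regulator, was called in 3 of 4 DFL, 3 of 4 PFL and 0 of 4 FB libraries. The start of Emx2, a forebrain gene, was open in all 12 libraries with overlapping percentiles in FB and limb, and so was that of the limb mesenchyme gene Prrx1. Lhx2, a gene of forebrain and limb, stood lower in FB (82.8 to 87.2) than in limb (89.7 to 92.8). Of 2 blood markers Klf1 was called in all 12 libraries (89.4 to 95.4) and Ptprc in 1 DFL library. Of 3 endothelial markers Kdr and Tek were called in all 12, Tek stood lower in FB (6.66 to 23.8) than in limb (30.4 to 83.0), and Cdh5 was called in 4 of 4 FB and 1 of 8 limb libraries. Of 3 muscle markers Myod1 and Pax3 were called in all 12 and Myf5 in 6 of 8 limb and 0 of 4 FB libraries. Of 5 epidermal markers Epcam was called in all 12, Cdh1 in 7 of 8 limb and 3 of 4 FB, Trp63 in 6 of 8 limb and 0 of 4 FB, and Krt5 and Krt14 in 1 limb library each. The part of these cell types in the results below was not tested.

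Windows around 9 summits are shown first, because they are the sites around which the tissue comparisons turn. These are the strongest coding-exon region of all 12 libraries (Sptbn4), of FB but not limb (Pkd1l1), of limb but not FB (Vps13b), of DFL but not PFL (Zcchc4) and of PFL but not DFL (Ptprq), followed by those in Dync1i1 and Hdac9. Each is 201 bases centred on the summit, read from the RefSeq copy of GRCm38 on the strand of the gene, with coding bases in capitals and intron bases in lower case.
Sptbn4, chr7:27361488-27361688 (minus strand): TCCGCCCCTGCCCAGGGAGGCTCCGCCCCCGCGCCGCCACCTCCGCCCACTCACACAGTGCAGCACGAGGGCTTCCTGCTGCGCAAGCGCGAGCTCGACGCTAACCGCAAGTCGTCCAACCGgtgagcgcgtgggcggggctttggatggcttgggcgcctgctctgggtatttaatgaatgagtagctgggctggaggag
Pkd1l1, chr11:8916152-8916352 (minus strand): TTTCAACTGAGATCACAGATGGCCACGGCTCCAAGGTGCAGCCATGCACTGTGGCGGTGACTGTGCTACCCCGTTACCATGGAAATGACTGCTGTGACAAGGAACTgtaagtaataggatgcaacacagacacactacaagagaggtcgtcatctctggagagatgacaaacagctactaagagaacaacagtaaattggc
Vps13b, chr15:35533300-35533500 (plus strand): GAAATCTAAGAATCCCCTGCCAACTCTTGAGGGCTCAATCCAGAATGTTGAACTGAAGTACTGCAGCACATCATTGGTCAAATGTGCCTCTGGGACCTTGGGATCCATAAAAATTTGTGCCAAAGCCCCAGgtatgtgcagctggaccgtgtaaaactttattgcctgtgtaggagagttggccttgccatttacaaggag
Zcchc4, chr5:52806869-52807069 (plus strand): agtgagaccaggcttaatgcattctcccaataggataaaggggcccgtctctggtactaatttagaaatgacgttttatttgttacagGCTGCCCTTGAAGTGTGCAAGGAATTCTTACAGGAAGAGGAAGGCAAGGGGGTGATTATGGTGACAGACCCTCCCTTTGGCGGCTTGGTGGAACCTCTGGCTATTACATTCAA
Ptprq, chr10:107662493-107662693 (minus strand): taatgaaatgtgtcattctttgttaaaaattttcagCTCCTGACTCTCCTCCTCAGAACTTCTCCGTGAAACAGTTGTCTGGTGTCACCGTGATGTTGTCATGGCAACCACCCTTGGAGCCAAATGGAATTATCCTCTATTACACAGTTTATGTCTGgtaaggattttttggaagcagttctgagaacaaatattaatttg
Dync1i1, chr6:5969304-5969504 (plus strand): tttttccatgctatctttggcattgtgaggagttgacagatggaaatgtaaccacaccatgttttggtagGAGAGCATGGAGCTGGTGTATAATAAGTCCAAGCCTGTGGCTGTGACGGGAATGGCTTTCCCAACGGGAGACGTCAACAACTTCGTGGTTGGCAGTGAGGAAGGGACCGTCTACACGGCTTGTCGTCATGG
Hdac9, chr12:34215396-34215596 (minus strand): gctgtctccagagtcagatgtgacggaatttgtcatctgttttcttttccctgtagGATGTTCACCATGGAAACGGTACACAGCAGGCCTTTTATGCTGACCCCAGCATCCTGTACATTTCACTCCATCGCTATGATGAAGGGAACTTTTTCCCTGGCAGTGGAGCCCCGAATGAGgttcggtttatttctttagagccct
Hdac9, chr12:34248226-34248426 (minus strand): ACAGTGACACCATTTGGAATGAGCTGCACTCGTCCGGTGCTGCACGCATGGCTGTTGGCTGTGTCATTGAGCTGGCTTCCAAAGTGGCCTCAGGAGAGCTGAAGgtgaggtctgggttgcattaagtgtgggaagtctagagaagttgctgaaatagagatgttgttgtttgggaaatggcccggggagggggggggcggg
Hdac9, chr12:34312493-34312693 (minus strand): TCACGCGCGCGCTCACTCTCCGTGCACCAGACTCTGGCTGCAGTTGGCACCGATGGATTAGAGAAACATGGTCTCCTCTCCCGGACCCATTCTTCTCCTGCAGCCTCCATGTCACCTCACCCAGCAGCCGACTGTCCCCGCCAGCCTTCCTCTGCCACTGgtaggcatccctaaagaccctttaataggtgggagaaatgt

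The windows show how these summits sat on exons. In Sptbn4, Pkd1l1, Vps13b and 2 of the Hdac9 windows the coding sequence ran up to a splice donor, in Zcchc4 and Dync1i1 it began at a splice acceptor, and in Ptprq and the Hdac9 window at chr12:34215396-34215596 a whole coding exon lay within the window. Coding bases made up 104 to 160 of the 201.

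Most coding-exon regions were not confined to coding sequence. Their median width was 363 bp and the median share of a region that was coding was 48.3% (quartiles 30.2% and 71.4%), while 332 of 2803 lay wholly within coding sequence. The exons were short, with a median of 175 bp, and the summit was within 50 bp of an end of the exon in 1569 regions (56.0%). By position, 2011 lay in internal coding exons (71.7%), 650 in the last (23.2%), 72 in the first and 70 in genes with a single coding exon. The coding bases that the rule admits were divided in nearly the same way, with 74.1% in internal and 19.2% in last exons. Exons over 1000 bp held 10.4% of the regions and 15.7% of the admitted coding bases.

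Values on both sides of the distance limit were close. The 178 regions from 2001 to 2499 bp from a start had a median fold of 3.41, and the 183 regions with a summit in coding sequence from 1503 to 2000 bp, which the rule leaves out, had 3.22. Fold here is the peak caller's enrichment of tags at the summit over the local background, on a linear scale. The region nearest to the limit on the inner side lay in Il17ra at 2001 bp (fold 3.4, 5 libraries), and that on the outer side in Clstn3 at 2000 bp (fold 3.0, 1 library). Median distance to the nearest transcript start over all 2803 was 9093 bp.

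A region could enter through 1 library. The summit lay in coding sequence in every library that called the region for 1504 of 2803, and in more than 50% of those libraries for 1883. For the regions beyond these 1504, at least 1 calling library had the summit of its overlapping region elsewhere. This count is therefore given below where it is not every calling library.

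Open regions had a similar density in coding sequence and in introns. Per megabase of admitted sequence the 12 libraries held 38.7 ± 5.02 (SD, n = 12) coding-exon regions, 39.5 ± 4.83 in introns, 31.5 ± 3.20 between genes and 91.5 ± 3.95 within 2 kb of a start. Within each library, the median fold of coding-exon regions stood at percentile 44.7 ± 1.98 (SD, n = 12) of all its regions against 43.5 ± 0.584 for intron regions. The difference of 1.25 percentile points was positive in 8 of 12 libraries (exact two-sided sign-flip permutation test, p = 0.0498, Benjamini-Hochberg adjusted p = 0.0664 over the 4 tests of this kind) and did not pass the threshold of 0.05 after adjustment.

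The number of coding-exon regions per library ran from 593 to 893. In DFL there were 823 and 731 in wt and 651 and 649 in 542. In PFL there were 893 and 829 in wt and 663 and 593 in 542, and in FB 861 and 710 against 752 and 686. In DFL and PFL both wt libraries also held more regions in all than both 542 libraries, while in FB wt replicate 2 (91622) held fewer than 542 replicate 1 (92927), so the share of all regions was compared.

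**Figure D1:**
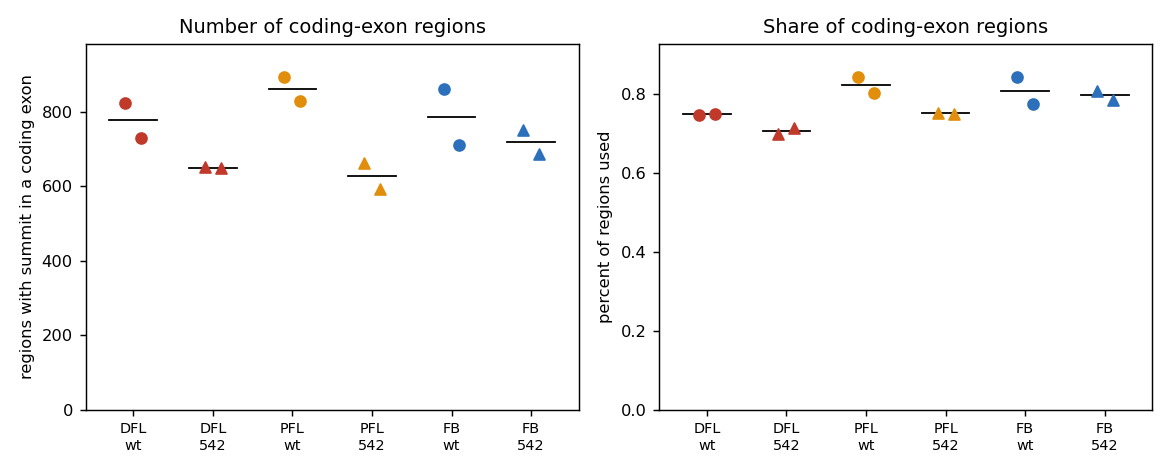
Number of regions with a summit in a coding exon (left) and their percent of all regions used (right) for the 12 libraries, by tissue and genotype. Circles are wt and triangles 542 libraries, and lines are group means. The shares ran from 0.700% to 0.844%, and in DFL and PFL both 542 libraries lay below both wt libraries.

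Coding-exon regions made up 0.804% ± 0.0302 (SD, n = 4) of regions in FB and 0.759% ± 0.0459 (n = 8) in limb, ranges that overlap (exact two-sided permutation test, p = 0.101, adjusted p = 0.101). The share was 0.729% ± 0.0250 (n = 4) in DFL and 0.788% ± 0.0441 (n = 4) in PFL. The highest DFL library, at 0.7509%, lay just below the lowest PFL library, at 0.7512% (exact permutation test, p = 0.0286, the smallest that 4 against 4 allows, adjusted p = 0.0664). With the 50000 strongest regions of each library the DFL and PFL difference had p = 0.171 (exact permutation test).

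Libraries of 542 had a lower share than wt, 0.753% ± 0.0412 (n = 6) against 0.794% ± 0.0432 (n = 6). The mean difference within tissues was -0.0412 percentage points, made up of -0.0416 in DFL, -0.0709 in PFL and -0.0112 in FB (exact permutation test within tissues, two-sided, p = 0.037, adjusted p = 0.0664). On the 50000 strongest regions of each library, which sets all libraries to the same number, the difference was -0.0413 (exact permutation test, p = 0.0185 unadjusted). None of the differences in share passed the threshold after adjustment over the 4 tests.

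As merged here, coding-exon regions were more often shared by libraries than intron regions, but the rule of entry bears on this. Of the 2803, 277 were called in all 12 libraries (9.88%) against 10.6% of all open regions, 5.19% of intron, 5.91% of intergenic and 37.5% of promoter regions. At the other end 748 were called in 1 library only (26.7%, and 31.8% of intron regions). A coding-exon region could enter through any of its libraries, while an intron region was classed by 1 summit. Regions called in many libraries thus had more chances to enter. With the summit in coding sequence in most calling libraries, 196 of 1883 were called in all 12. Under that condition, which every region of 1 library meets, 748 of 1883 were of 1 library, a larger part than among intron regions. Regions of 1 library had a median mean fold of 2.94 and those of all 12 had 7.33.

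**Figure D2:**
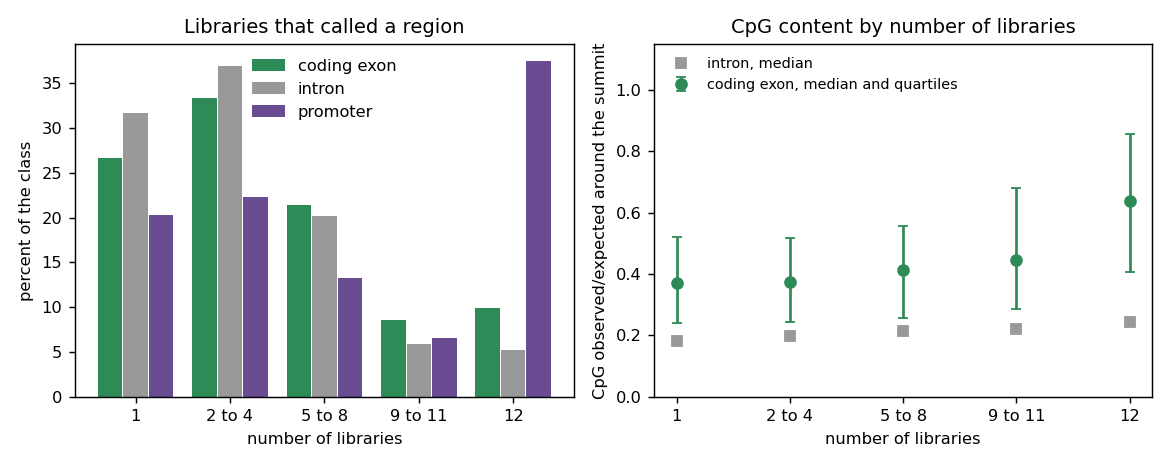
Left, percent of coding-exon, intron and promoter regions by the number of libraries that called them. Right, ratio of observed to expected CpG in 201 bp around the summit, as median with quartiles for coding-exon regions and median for intron regions. The coding-exon median was 0.372 for regions of 1 library and 0.639 for those of 12, while the intron median stayed between 0.182 and 0.245.

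Sequence composition of the widely shared regions differed in the median from the rest, with values that overlapped. CpG dinucleotides, which are depleted in most of the genome and retained in CpG islands, were present at a median of 0.402 of the number expected from base composition, close to the 0.396 of admitted coding bases and above the 0.200 of intron regions. Among the 277 regions of all 12 libraries the median was 0.639, and 146 of them (52.7%) were above 0.6, against 121 of 748 (16.2%) of the regions seen in 1 library. The quartiles overlapped, at 0.407 and 0.856 for all 12 libraries and 0.241 and 0.521 for 1 library. Median GC content was 55.2% in regions of 1 library, 51.2% in those of 2 to 4, 51.7% in those of 5 to 8, 56.7% in those of 9 to 11 and 63.2% in those of all 12. The last coding exon held 38.6% of the regions of all 12 libraries, 23.3% of those of 1 library and 17.1% of those of 2 to 4, and the median width was 886 bp against 235 bp. These are descriptions over regions, which are not replicates.

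Short motifs were counted in the same 201-bp windows on both strands. The E-box CAGCTG was present in 27.3% of coding-exon windows and 19.2% of windows of all open regions. The homeodomain core TAATTA was present in 4.0% against 10.1%, the HOX13-type word CAATAAA in 2.14% against 4.90%, and the TEAD word GGAATG in 11.2% against 15.1%. A reduced CTCF word, made of the fixed letters of the insulator protein's site, was found in 20.2% of the 277 regions of all 12 libraries in 7.89% of those of 1 library and in 5.87% of those of 2 to 4. In intron regions the same shares were 27.2%, 4.80% and 5.37%. A word match is not a bound site.

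The strongest regions open in all 12 libraries lay in genes of varied function. In Sptbn4, which encodes the spectrin of axon initial segments, the region chr7:27361120-27362005 covered coding exon 32 of 35, with folds of 21.2, 19.6, 18.3 and 17.8 for DFL, 18.5, 18.4, 19.6 and 19.6 for PFL and 22.8, 22.2, 21.4 and 23.6 for FB. These folds overlapped between DFL and PFL, and all FB values were above all limb values. With library medians set equal, the difference of FB to limb was 0.06 ± 0.04 on the log2 scale (SE, limma adjusted p = 0.275) and did not pass the test. A region in the last coding exon of Pomc, the precursor of the melanocortin peptides, reached 12.2 to 17.3 in limb and 18.8 to 21.8 in FB without overlap. Zfp771, a zinc-finger gene, had a mean fold of 16.7 ± 1.27 (SD, n = 12) over its last exon, and Rab6b, a small GTPase of Golgi transport, 15.9 ± 2.05. The region at the end of Bcat2, a mitochondrial aminotransferase, had its summit in coding sequence in 2 of 12 libraries and in the other genes just named it was coding in all 12.

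Tissue specificity was read first from the calls. A region counted as FB but not limb when all 4 FB and none of the 8 limb libraries called it, and the other patterns were defined in the same way. Coding-exon regions open in FB but not limb numbered 112 of 2803 (4.0%), where 6.4% of all open regions had that pattern. Those of limb but not FB numbered 88 (3.14%, and 3.81% of all). For DFL but not PFL there were 40 (1.43%, and 2.05% of all), and for PFL but not DFL 41 (1.46%, and 1.48% of all). The share of coding-exon regions lay below or near that of all regions in each pattern. With the stricter condition that the summit lay in coding sequence in most of the calling libraries, 56, 31, 13 and 21 regions remained in the same order. With the additional wt DFL library counted as a DFL library the patterns held 106, 87, 35 and 29.

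**Figure D3:**
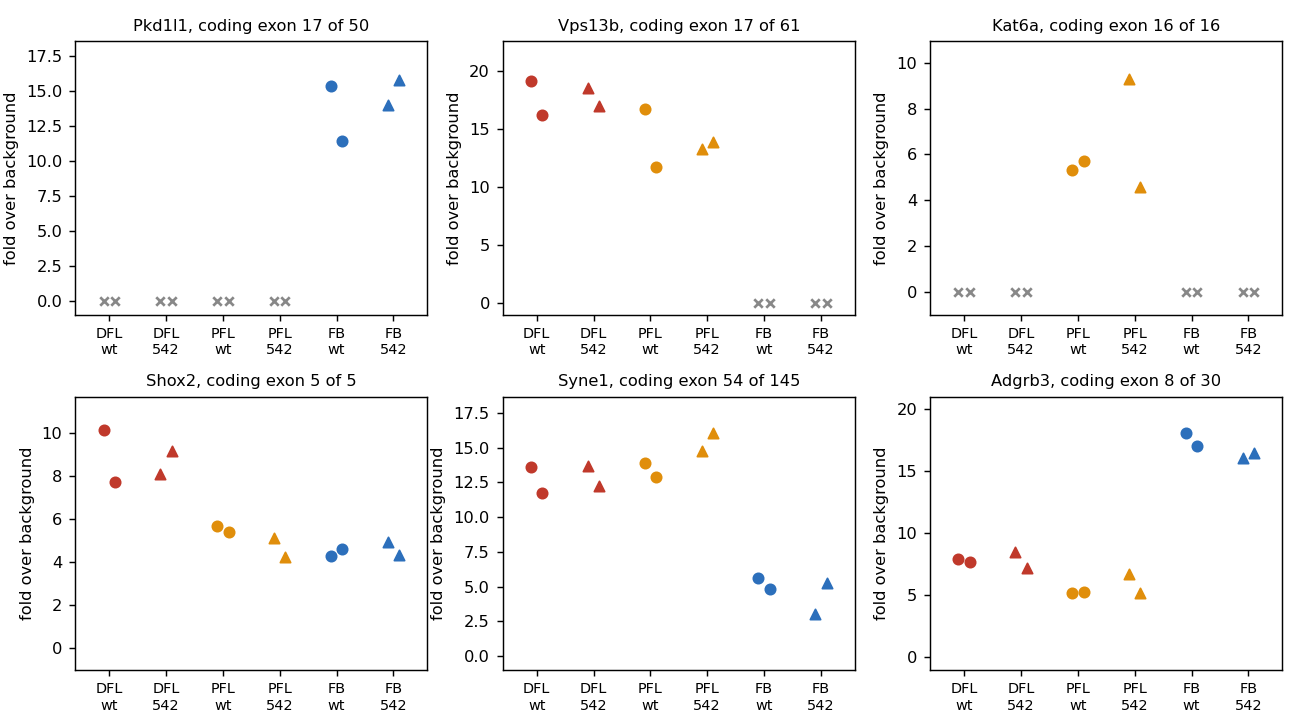
Fold over local background of 6 coding-exon regions in each of the 12 libraries, circles for wt and triangles for 542. Grey crosses on the zero line mark libraries in which no region was called, not a measured value of 0. Pkd1l1 was called in FB, Vps13b in limb and Kat6a in PFL libraries alone, and the other 3 regions were called in every library at different levels.

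Among the forebrain regions the highest fold was in Pkd1l1, a polycystin that acts in left-right patterning. Its region chr11:8915980-8916618 over coding exon 17 of 50 had folds of 15.4 and 11.4 in wt FB and 14 and 15.8 in 542 FB. No limb library called it, wt and 542 values overlapped, and the summit was in coding sequence in 3 of 4 libraries. A region of Wdr7, which acts in acidification of vesicles, was called at 13.8, 13, 14.1 and 14.6 in FB, with the summit in coding exon 22 of 27 in all 4 libraries. Slc1a6, a glutamate transporter of neurons, and Dcaf12, a substrate receptor of a ubiquitin ligase, had mean folds of 10.0 ± 0.914 and 10.0 ± 0.484 (SD, n = 4), also with the summit in coding sequence in 4 of 4 libraries. Lrig3, a membrane protein with leucine-rich repeats, had 10.2 ± 0.579 but a coding summit in 1 of 4 libraries.

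Among the limb regions the highest was in Vps13b, a lipid transfer protein of the Golgi, at chr15:35532969-35533688 over coding exon 17 of 61. Its folds were 19.2, 16.3, 18.6 and 17.0 in DFL and 16.7, 11.8, 13.3 and 13.9 in PFL, with the summit in coding sequence in 8 of 8 libraries. The DFL and PFL values overlapped, and the window printed above holds the words CAATAAA, on the opposite strand, and CAGCTG, and a match to the reduced CTCF word. Nav3, a neuron navigator, was open within its long coding exon 8 at 11 ± 1.38 (SD, n = 8), again with 8 of 8 summits in coding sequence. Tbc1d19, with a domain that activates Rab hydrolysis, had 11 ± 1.2 and Plce1, a phospholipase C, 9.83 ± 1.77, each with 7 of 8 summits. Msh3, a mismatch repair protein, had 13.9 ± 1.68 with 1 of 8, so in most libraries its summit lay elsewhere.

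Regions open in DFL but not PFL mostly had their summits beside the exon. Zcchc4, an RNA methyltransferase, had folds of 7.29, 8.91, 8.29 and 7.43 in DFL and was called in no PFL or FB library, with a coding summit in 1 of 4 libraries. Fbxo41 (7.91 ± 1.04, SD, n = 4), Zpld1 (7.65 ± 1.59), Rai14 (7.03 ± 1.60) and Heatr5a (6.31 ± 1.45) followed in DFL. Coding summits were found in 1 of 5, 1 of 7, 3 of 5 and 1 of 4 of the libraries that called them, and all but Heatr5a were also called in at least 1 FB library. Of the 40 regions, 4 (10.0%) held CAATAAA, where 13.6% of all open regions of that pattern did.

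In the proximal set, 21 of 41 regions had most of their summits within exons, against 13 of 40 in the distal set. Kat6a, a histone acetyltransferase, was open inside its last coding exon at 5.31, 5.73, 9.30 and 4.59 in PFL, and the region of 743 bp was wholly coding, with 4 of 4 summits. No DFL or FB library called it. Ptprq, a receptor phosphatase of sensory hair bundles, was called at 7.08, 4.98, 9.18 and 5.59 in PFL and also in all 4 FB libraries at 3.99 to 7.89, with 7 of 8 summits in coding sequence. Bsn, a scaffold of the presynaptic zone, and Zfr, an RNA-binding zinc-finger protein, had 5.39 ± 1.51 and 5.47 ± 1.58 (SD, n = 4) in PFL, and Megf10, an engulfment receptor, 5.82 ± 0.975. Coding summits were found in 4 of 4, 6 of 6 and 3 of 4 libraries. Zfr was also called in 2 FB libraries, and Bsn was called in the additional wt DFL library at 7.07. The CAGCTG word was present in 23 of the 41 regions (56.1%), and in 37.7% of all open regions with this pattern.

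Hdac9 and Dync1i1, the known hosts of exonic limb enhancers, gave 4 regions. These were taken by gene, and whether any of them is one of the described enhancers was not tested. The Hdac9 region chr12:34248114-34248846 at coding exon 16 of 25 lay 290.7 kb from the start of Twist1, a regulator of limb mesenchyme. It had folds of 4.49, 5.78, 6.08 and 4.53 in DFL and 9.34, 7.45, 8.80 and 7.04 in PFL and was called in no FB library. PFL values were all above DFL values, and 2 of 8 summits were in coding sequence. This is a description, since the region was called in limb alone and entered no test. A further Hdac9 region at coding exon 12, 354.9 kb from Twist1, was called in the 4 PFL libraries alone at 3.70, 4.52, 3.37 and 3.0, with 3 of 4 summits in coding sequence. The Hdac9 region at coding exon 19, 257.8 kb away, was called in all 12 libraries, with 4 of 12 summits in coding sequence, at 6.27 ± 0.731 (SD, n = 8) in limb and 4.99 ± 0.831 (n = 4) in FB, a log2 difference of -0.52 ± 0.13 (SE, limma adjusted p = 0.00644). In Dync1i1, coding exon 12 of 16 was called in 1 library, 542 PFL replicate 2, at fold 3.20, 893.9 kb from Dlx6 and 912.7 kb from Dlx5, at percentile 14 of that library.

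Levels were then compared for the 277 coding-exon regions called in all 12 libraries, with limma fitted over all 26177 such regions on log2 fold and with the median of each library set equal. A region called everywhere could differ between tissues only in level, so the on-and-off regions described above were not part of these tests. All p-values measure the spread between pools of embryos, 2 per group.

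Between FB and limb, 49 of 277 coding-exon regions were higher in FB (17.7%, with 15.9% of all tested) and 65 were lower (23.5%, with 24.0% of all tested). Both shares were near those of all regions tested. The split between directions depended on scaling, for the coding-exon regions and for all regions tested. Quantile normalization gave 61 higher and 42 lower (4947 and 4857 of all tested). Recovered tag counts gave 81 and 70 (7552 and 6783 of all), and no centring 105 and 30 (10277 and 3458 of all). The median difference of the coding-exon regions was then 0.06, 0.07 and 0.16 on the log2 scale, against -0.01 with equal medians. Leaving out the centring moved the median difference of all regions from -0.03 to 0.15 on the log2 scale. Most differences were moderate, with medians of 0.51 for those higher and -0.54 for those lower, and 2 and 7 regions exceeded 1 in size.

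**Figure D4:**
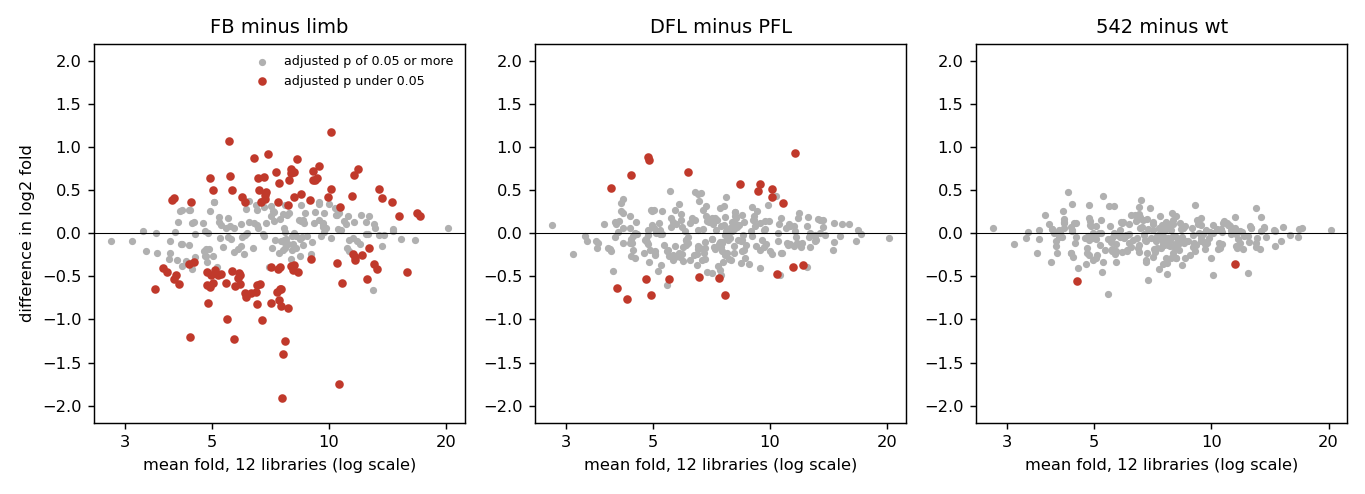
Difference in log2 fold for the 277 coding-exon regions called in all 12 libraries, against their mean fold on a log axis, for FB minus limb, DFL minus PFL and 542 minus wt. Red points had a limma adjusted p under 0.05 over 26177 regions, and there were 114, 23 and 2 of them.

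The largest excess in FB was in Adgrb3, an adhesion receptor of synapses, at coding exon 8 of 30. Folds were 7.91, 7.70, 8.48 and 7.17 for DFL, 5.15, 5.28, 6.73 and 5.19 for PFL and 18.1, 17.0, 16.0 and 16.5 for FB. FB did not overlap limb, and the log2 difference was 1.18 ± 0.09 (SE, limma adjusted p = 3.19e-07). Dner, a Notch ligand of neurons, followed at 1.08 ± 0.14 (limma adjusted p = 3.73e-05), with the summit in coding sequence in 4 of 12 libraries. Naa40, an acetyltransferase of histone tails, had 12.6 ± 1.60 (SD, n = 4) in FB and 6.14 ± 1.04 (n = 8) in limb, with the summit in its last coding exon in all 12 libraries. Prickle1, of planar cell polarity, and Afap1l1, an actin-associated protein, differed by 0.93 ± 0.11 and 0.88 ± 0.14, each with a coding summit in 1 of 12 libraries.

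The largest deficit in FB was in a region at an exon of Vrk1, a nuclear kinase, at -1.91 ± 0.11 (SE, limma adjusted p = 2.31e-08), but there the summit was in coding sequence in 1 of 12 libraries. Syne1, which encodes the giant nuclear envelope protein nesprin-1, differed by -1.75 ± 0.12 (limma adjusted p = 1.46e-07) at coding exon 54 of 145, with 12 of 12 summits in coding sequence. Its folds were 13.7, 11.8, 13.7 and 12.3 for DFL, 13.9, 12.9, 14.8 and 16.0 for PFL and 5.6, 4.82, 3.04 and 5.23 for FB. Every limb value was above every FB value. Serpinb13, a protease inhibitor, was lower in FB within its last coding exon (4.44 ± 0.381, n = 4, against 9.38 ± 1.33, n = 8, SD). The gene 2210408I21Rik differed by -1.40 ± 0.12 and Zc2hc1b by -1.22 ± 0.14, with coding summits in 10 and 2 of 12 libraries.

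Between DFL and PFL, 12 of 277 were higher in DFL (4.33%, with 3.93% of all tested) and 11 were lower (3.97%, with 3.44% of all tested). With 1 library left out the counts were 7 to 10 higher and 3 to 10 lower. At least 1 of both counts fell by more than 1.5 times without either wt DFL, 542 DFL or wt PFL library or without 542 PFL replicate 1. With no centring 15 were higher and 4 lower (1374 and 470 of all tested), and on recovered tags 13 and 23 (2007 and 2795 of all). Tmtc4, an O-mannosyltransferase, had the largest excess in DFL, 0.93 ± 0.12 (SE, limma adjusted p = 0.000665), with 12.4 ± 1.04 in DFL, 6.38 ± 1.92 in PFL and 15.9 ± 1.51 in FB (SD, n = 4 each). Shox2, a homeobox gene required for the proximal limb skeleton, was open in its last coding exon at 10.1, 7.71, 8.12 and 9.18 for DFL, 5.67, 5.40, 5.11 and 4.26 for PFL and 4.29, 4.59, 4.92 and 4.35 for FB. DFL was above both other tissues without overlap, with a log2 difference to PFL of 0.72 ± 0.14 (limma adjusted p = 0.00788). On recovered tags, which leave out the local background, the difference was 0.13 (limma adjusted p = 0.643) and the call was lost.

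Hgf, a growth factor for migrating muscle precursors, and Ispd, of dystroglycan glycosylation, were also higher in DFL, by 0.89 ± 0.16 and 0.85 ± 0.17, with coding summits in 1 and 4 of 12 libraries. In the other direction Artn, a ligand of the GDNF family, had 3.15 ± 0.899 in DFL, 4.84 ± 0.410 in PFL and 6.83 ± 0.661 in FB (SD, n = 4 each). Tlx3, a homeobox gene of sensory neurons, had 3.51 ± 0.530 in DFL and 5.21 ± 0.818 in PFL, where 2.80 to 3.98 and 4.19 to 6.17 did not overlap. Arhgap18, a GTPase-activating protein, Fer1l6, a ferlin, and P2rx7, an ATP-gated channel, were lower in DFL by -0.72 ± 0.13, -0.76 ± 0.20 and -0.53 ± 0.13. Coding summits were found in 8, 1 and 1 of 12 libraries for these, and Fer1l6 had 1 DFL library at 5.76 and the other three between 2.71 and 2.77. Several of these calls depended on single libraries. That of P2rx7 was lost with no centring (limma adjusted p = 0.0589) and without any limb library but 542 PFL replicate 2 (0.0584 to 0.0914). That of Fer1l6 was lost with no centring (0.062), on recovered tags (0.0565) and without any limb library but 542 DFL replicate 2 or 542 PFL replicate 2 (0.0805 to 0.102). The Tlx3 call was lost without any limb library but 542 DFL replicate 1 or wt PFL replicate 1 (limma adjusted p = 0.0562 to 0.109), and the Artn call without wt DFL replicate 1, 542 DFL replicate 2, wt PFL replicate 2 or 542 PFL replicate 2 (0.0686 to 0.1).

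Between 542 and wt, 0 of 2803 coding-exon regions were called in all libraries of one genotype and none of the other, where 0.0122% of all open regions were wt alone and 0.00813% were 542 alone. In level, 0 of 277 were higher (0.435% of all tested) and 2 were lower in 542 (0.722%, with 0.256% of all tested). An unadjusted limma p under 0.05 was found for 39 of the 277. The share of all tested regions at that limit was not counted, so nothing particular to coding exons can be read from it. Fbxo41 was lower in its first coding exon, with 5.15 and 6.21 in wt DFL, 4.06 and 4.12 in 542 DFL, 4.66 and 5.70 against 3.76 and 3.11 in PFL, and 6.19 and 5.11 against 3.42 and 2.92 in FB. Every 542 value was below every wt value of its tissue (-0.56 ± 0.12, SE, limma adjusted p = 0.0471). The adjusted p was 0.0557 after quantile normalization, 0.076 on recovered tags, 0.0634 with the replicate number as a block and 0.0601 with more regions tested. Stx11, a syntaxin of immune cells with a single coding exon, had 12.35 and 12.46 against 9.43 and 9.06 in DFL, 14.7 and 12.3 against 10.8 and 8.48 in PFL and 14.2 and 13.1 against 9.44 and 11.8 in FB (-0.36 ± 0.07, limma adjusted p = 0.0471, and 0.06 with the block). On recovered tags 5 were higher and 6 lower (729 and 479 of all tested). Without 542 PFL replicate 1, 3 regions were called lower, without wt FB replicate 2 or 542 FB replicate 2 there was 1, and without any of the other 9 libraries there were 0. The difference between DFL and PFL in the genotype effect was called in 0 of 277 coding-exon regions and 0.0% of all tested. Of the 277, 29 had an unadjusted limma p under 0.05, again without a share of all tested regions to set beside it.

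Genes with many open coding exons were mostly long ones. Syne1 held 12 coding-exon regions over 26.4 kb of coding sequence, and Adgrv1, a giant adhesion receptor of hair cells, 9 over 18.9 kb. Dst, Ptprq, Sptbn4 and Tenm3 held 6 each over 6.90 to 23.2 kb. The regions of 1 gene were unlike each other. In Syne1, 1 region was called in all 12 libraries and 3 in 1 library. Coding exon 46 was open in all 8 limb libraries at a mean of 8.90 and in no FB library, and coding exon 71 in the 4 DFL libraries alone at 5.29. In Adgrv1, coding exon 67 was open in all 12 libraries at a mean of 11.8, and coding exon 74 in limb alone at 8.09. In Tenm3, a teneurin of neuronal wiring, coding exons 9 and 13 were open in FB alone, at 5.02 and 3.04, each with 3 of 4 summits in coding sequence.

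**Figure D5:**
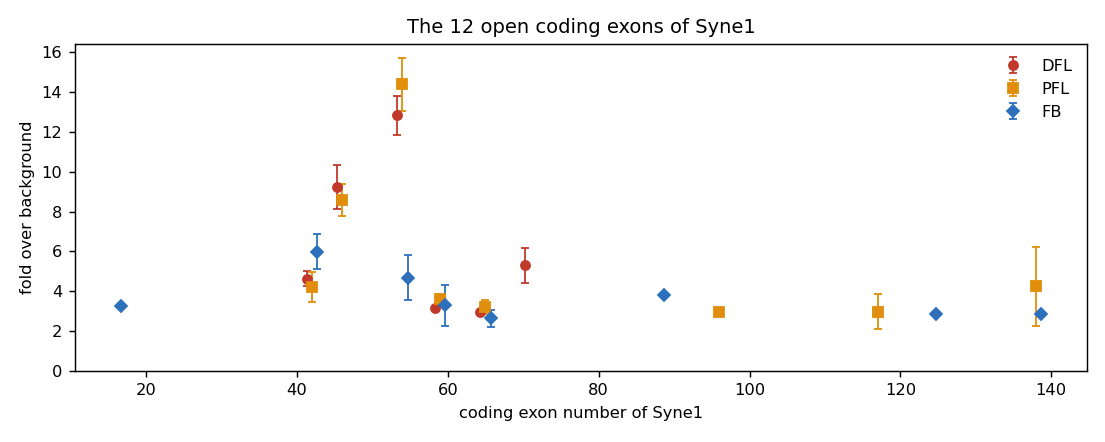
Mean fold over local background of the 12 coding-exon regions of Syne1 by coding exon number and tissue, with SD over the libraries that called the region (no bar where 1 library did). Tissues are shifted sideways for clarity. Exon 54 stood at 12.8 in DFL, 14.4 in PFL and 4.67 in FB, exon 46 at 9.23 in DFL and 8.58 in PFL, and the means of the other regions lay under 6.

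Genes of known pathways were counted from lists. Of 65 limb patterning genes 15 held 16 coding-exon regions, and 3 of those were tested for level. Bmpr1b, a BMP receptor of cartilage, was open at coding exon 5 in all 12 libraries, at 10.2 in DFL, 8.19 in PFL and 17.2 in FB (FB minus limb 0.75 ± 0.14, SE, limma adjusted p = 0.000814). Coding exon 6 of the same gene was called in the 4 PFL libraries at a mean of 8.73 and in 1 DFL library at 3.22, with a coding summit in 1 of 5. Rarg, a retinoic acid receptor, stood at 8.85 in FB, 4.28 in DFL and 4.57 in PFL and was missing from 1 DFL library, so it was not tested, and 7 of 11 summits were coding. None of the 16 regions had any of the 4 tissue patterns. Among all 2803 coding-exon regions the shares were 4.0% (FB), 3.14% (limb), 1.43% (DFL) and 1.46% (PFL). Among all open regions they were 6.4%, 3.81%, 2.05% and 1.48%, so few were to be found in 16.

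Of 38 skeletal and connective tissue genes 14 held 21 regions, and 3 were FB but not limb, a pattern of 6.4% of all open regions. Gdf6, a joint-forming growth factor, was open in its last coding exon at 8.65 in DFL, 10.9 in PFL and 14.9 in FB, with DFL below PFL (-0.39 ± 0.11, SE, limma adjusted p = 0.0367) and FB above limb (0.44 ± 0.09, limma adjusted p = 0.0016). The DFL call was lost with no centring (limma adjusted p = 0.0711) and on recovered tags (0.849), and without any DFL library, wt PFL replicate 1, 542 PFL replicate 2 or either wt FB library (0.0501 to 0.144). Fbn2, a fibrillin of connective tissue, was lower in FB at coding exon 12 (-0.57 ± 0.14, limma adjusted p = 0.00404), with 8 of 12 summits in coding sequence. Sox5, a cartilage and neuronal regulator, was called in FB alone at 6.84, 7.24, 7.78 and 7.30, with 2 of 4 summits in coding sequence. Of 61 forebrain transcription factors 17 held 22 regions. Only the 3 called in all 12 libraries were tested. All 3 were called lower in FB than in limb, as were 24.0% of all regions tested. Their median difference was -0.48, beside -0.03 over all regions tested, with Npas3 at -0.64 ± 0.18 (SE), Tbr1 at -0.48 ± 0.13 and Rax at -0.31 ± 0.08. All 3 stayed below 0 under each scaling, but with no centring none was called (limma adjusted p = 0.0596, 0.0706 and 0.195), and Tbr1 was not called after quantile normalization (0.116) or without wt FB replicate 1 (0.0579). Without wt FB replicate 2 or 542 FB replicate 2 Npas3 was not called (limma adjusted p = 0.0813 and 0.0577), and the Rax summit was coding in 6 of 12 libraries. Lhx2, a forebrain and limb regulator, was open in its last coding exon in all 8 limb libraries at 5.31 to 12.2 and in 2 of 4 FB libraries at 2.39 and 3.75.

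Among 60 genes of axon guidance and synapses 25 held 32 regions, of which 2 were FB but not limb, where 6.4% of all open regions were. Shank3, Gabbr2 and Dlgap1, proteins of the synapse, were open in all 12 libraries at 7.14 to 9.73, 7.71 to 8.27 and 6.72 to 7.57 by tissue mean and did not pass the test in either tissue contrast, while Dlgap3 was lower in FB (-0.45 ± 0.12, SE, limma adjusted p = 0.00676), a call lost with no centring (0.0898) and on recovered tags (0.91), with 7 of 12 summits in coding sequence. Among 42 chromatin regulators 12 held 14 regions, 0 of them in all 12 libraries. That holds for 9.88% of all coding-exon regions and 10.6% of all open regions, so few were to be found in 14. Zinc-finger genes with long exons held 21 regions in 15 of 40 genes, with Zfhx2 lower in FB (-0.47 ± 0.16, limma adjusted p = 0.0321), a call lost with no centring (0.15) and after quantile normalization (0.184). It was also lost without wt DFL replicate 1, 542 DFL replicate 2, wt PFL replicate 1, 542 PFL replicate 2, wt FB replicate 2 or 542 FB replicate 1 (limma adjusted p = 0.051 to 0.146).

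Lists for other cell types were counted in the same way. Muscle genes gave 6 regions in 4 of 14 genes, blood and endothelial genes 13 in 9 of 19, and epidermal genes 6 in 4 of 16. Ryr1, the calcium channel of muscle, was lower in FB at coding exon 66 (-0.68 ± 0.18, SE, limma adjusted p = 0.00775), with a coding summit in 1 of 12 libraries, and was not called without wt FB replicate 2 (0.058). Tal1, the regulator of blood progenitors, was open in its first coding exon in all 12 libraries at 7.53 to 8.13 by tissue mean. A region of Ptprc, the leukocyte antigen CD45, was called in the 8 limb libraries at 2.86 to 7.41 and in no FB library, with a coding summit in 1 of 8. Trp63, of epidermal precursors, was called in all 8 limb libraries and 1 FB library, with a coding summit in 3 of 9.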

How the data were processed

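ATAC-seq was measured in 12 libraries of 6 groups (wt and 542 in DFL, PFL and FB). An additional wt DFL library was used in 1 alternative only. Per the study's methods and the labels, the authors trimmed reads with cutadapt, mapped them with Bowtie (wt libraries to mm10, 542 libraries to a genome with the insertion, as the deposited lists are labelled), kept confident alignments, removed duplicates with Picard, converted them with bedtools and called peaks per library with MACS2, treating each cut site as a short tag centred on the insertion. The deposited peak lists hold, per summit, a fold ratio over local background, −log10 p and −log10 q values, and a summit offset. The authors made the −log10 values and the fold with MACS2 on each library alone, so replicates were not pooled. The deposited score column was not used.

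Lines that share coordinates were reduced to the strongest summit. Regions were classed with GENCODE M21 and merged over libraries at any overlap, and a merged region took, per library, the fold of its strongest overlapping region there. Absence of a region means that it was not called, not a value of 0. Shares were compared with exact permutation tests (numpy 2.4.6). Levels were compared with limma 3.58.1 in R 4.3.3 on log2 fold, with no pseudocount added to the deposited ratio. Library medians were set equal and a mean-variance trend was used. Benjamini-Hochberg adjustment ran over 26177 regions called in all 12 libraries, at a threshold of 0.05. On simulated data for DFL against PFL over those 26177 regions, 91% of changes of 1 on the log2 scale were recovered and 100% of changes of 2. Tag numbers at summits were recovered from fold and p (scipy 1.17.1) for 99.478% to 99.997% of regions per library. For this the deposited ratio was taken to hold a pseudocount of 1 in both tags and background. The tag numbers served as an alternative, since depth was not otherwise given. Windows of 201 bp came from GRCm38 (RefSeq).

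Named regions were the 5 of highest mean fold among those in all 12 libraries and in each tissue pattern, the 5 with the largest called difference per direction of each contrast (3 for genotype), all in Dync1i1 and Hdac9, the genes with most regions (7, since 5 were tied at 6 regions), and up to 4 of highest mean fold per gene list. Some items that this rule names are not reported here. The members and lists were chosen with earlier results of these data known. Alternatives were quantile normalization, no centring, recovered tags, other call limits and distances, the replicate number as a block, and leaving out libraries.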

Additional observations from a re-analysis of the deposited data

Results flagged for a closer look

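For the regions named here and the share of coding-exon regions, 113 sets of 4 libraries of 1 tissue were examined for a library far from the others, and 5 exceeded Dixon's 95% limit. Chance alone flags about 1 in 20 such sets. In Pomc, wt DFL replicate 1 had a fold of 16.75 where the other DFL libraries had 15.24 to 15.36. In Tmtc4, wt FB replicate 2 had 13.66 and the other FB libraries 16.54 to 16.77. In Fer1l6, 542 DFL replicate 2 had 5.762 and the others 2.707 to 2.772. In Adgrb3, 542 PFL replicate 1 had 6.731 and the others 5.147 to 5.277, and in Zc2hc1b wt DFL replicate 2 had 8.232 and the others 5.6 to 6.017.

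The additional wt DFL library, which was used in 1 alternative only, held 1054 coding-exon regions among 122493 regions, more than any of the 12 libraries, at an estimated 78.0 M tags. Of these, 812 overlapped one of the 2803 coding-exon regions and 242 did not. In the other direction, 1331 of the 2803 (47.5%) were called in it.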

How the results depend on the processing

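No share difference and no named region's difference changed sign, but the split of FB against limb turned from mostly lower to mostly higher under 3 scalings. Over all regions tested, higher calls also outnumbered lower ones under these scalings. For the share of coding-exon regions, DFL minus PFL was -0.0405 on the 50000 strongest regions (exact permutation p = 0.171), -0.0552 counting any summit in coding sequence (p = 0.2), -0.0427 beyond 5 kb (p = 0.0571) and -0.0196 at −log10 q of at least 10 (p = 0.543), and 542 minus wt beyond 5 kb was -0.0277 (p = 0.0741). For levels, FB against limb gave 61 higher and 42 lower under quantile normalization, 105 and 30 with no centring, 81 and 70 on recovered tags, and 71 and 113 when regions called in at least 1 library of each group were tested. DFL against PFL gave 4 lower with no centring and 23 on recovered tags. Against wt, 542 gave 5 higher and 6 lower on recovered tags and 4 lower with the wider set of regions. The causes were not tested.

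Among tissue patterns, the 50000 strongest regions left 46 for limb (1.64%, and 2.19% of all open regions) and 23 for DFL (0.82%, and 1.155% of all). They left 25 for PFL (0.89%, and 0.94% of all) and 1 for wt (0.036%, and 0.0045% of all). With −log10 q of at least 10 there were 35 for limb (1.25%, and 1.77% of all), 14 for PFL (0.50%, and 0.67% of all) and 1 for wt (0.036%, and 0.0098% of all). Single-library leave-outs and the condition on the summit were chosen after seeing the data. With the summit in coding sequence in most libraries, the patterns held 56 (FB), 31 (limb), 13 (DFL) and 21 (PFL) of 1883 regions. Of the 196 such regions called in all 12 libraries, 7 were higher in DFL than in PFL and 43 were lower in FB than in limb. Of all regions tested, 3.93% and 24.0% were called in these directions.

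Leaving out a library or a replicate number, the share differences ranged from 0.0255 to 0.0649 for FB against limb (0.0574 without wt PFL replicate 1, exact permutation p = 0.0273), from -0.0748 to -0.0408 for DFL against PFL, from -0.0575 to -0.0250 for 542 against wt, and the percentile difference from 0.536 to 1.97. The counts ranged from 0 to 10 higher and 0 to 10 lower for DFL against PFL, 23 to 52 and 28 to 63 for FB against limb, and 0 to 1 and 0 to 3 for 542 against wt. Without a replicate number each group had 1 library, and an additive fit assumed it to vary like the rest. Named calls between DFL and PFL were lost there except Tmtc4 without replicate 1. Pattern counts ranged over 115 to 219 (FB), 90 to 140 (limb), 40 to 117 (DFL), 41 to 110 (PFL), 0 to 10 (wt) and 0 to 3 (542), and fewer libraries make these patterns easier to meet.

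Replicate numbers were shared between groups, and the pairing check gave 15 correlations from -0.036 to 0.017. It compared single regions with library medians set equal, so it could not show differences between whole libraries. In each group replicate 1 held more regions in all, and more coding-exon regions, than replicate 2. Whether the numbers mark a shared batch was not tested. With the replicate block, 542 against wt had 1 lower, DFL against PFL 10 higher and 9 lower, and FB against limb 49 and 64. Fbxo41 and Stx11 were not called in that fit (limma adjusted p = 0.0634 and 0.06). Regions near the calling limit can be missed in shallower libraries.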
